A study of Mus musculus with 8 samples.

Results

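The genes described here were those of the Wnt signalling pathway that encode its secreted ligands, its receptors and the proteins that modulate them. They were measured in whole mouse embryos labelled Meis1 knockout (KO) or Prep1 hypomorph, each beside wild-type controls. The members were every gene whose symbol is Wnt or Fzd followed by a number, together with the co-receptor genes Lrp5, Lrp6 and Ror2, the R-spondins Rspo1 to Rspo4 and their receptor Lgr5, the inhibitors Sfrp1, Sfrp2, Frzb, Dkk1 to Dkk3 and Kremen1, and the intracellular genes Axin1, Axin2, Lef1, Tcf7 and Ctnnb1. The rule uses names alone and no measured value, but it was set with earlier results of these data known. They came to 50 of the 18904 gene entries in the Meis1 table, for 49 symbols, since Fzd10 is listed under 2 overlapping gene IDs. In the Prep1 table they came to 49 of 17348 entries, for 48 symbols, Wnt8a having no row in that table.

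All 8 libraries were made from RNA of whole C57BL/6 embryos at embryonic day 11.5. Meis1 and Prep1 (gene symbol Pknox1) are homeodomain transcription factors of the TALE class. There were 3 libraries labelled Meis1 KO and 3 labelled wild type (WT), and 1 library each of a Prep1 hypomorph and its WT; the controls were littermates of each mutant. The sources used here do not give the alleles or how many embryos went into a library, and nothing in them says that the libraries of a group came from separate litters, so that p-values measure the spread between libraries. A hypomorph keeps part of a gene's function.

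Wnt proteins are secreted, lipid-modified ligands that bind Frizzled receptors. With the co-receptors Lrp5 and Lrp6 this stabilises beta-catenin (Ctnnb1), which enters the nucleus and activates genes together with the factors Tcf7 and Lef1; without a ligand, Axin1 and Axin2 hold beta-catenin in a complex that marks it for destruction. R-spondins, through Lgr receptors, raise the sensitivity of a cell to Wnt. The Sfrp proteins and Frzb instead bind the ligands, and Dkk1 blocks the co-receptors together with Kremen1. Other ligands, Wnt5a and Wnt11 among them, act through receptors such as Ror2 on cell polarity and movement. In the embryo the pathway patterns the neural tube, the limbs, the somites and the tail.

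Library totals were 4331560 to 6378169 counts in the Meis1 comparison, 4000984 in the Prep1 WT library and 5893401 in the hypomorph. Meis1 itself measured 90.6, 86.2 and 110 CPM (counts scaled to library size, as a rate) in the WT libraries and 84.7, 66.7 and 69.5 CPM in the KO libraries, so that transcript from the locus was still counted in the libraries labelled KO; whether the counted reads lie in the deleted part is not given. Pknox1 had 129 counts in the Prep1 WT library and 14 in the hypomorph, a log2 ratio of -3.58 (95% interval -4.70 to -2.99, counting error only). Markers of neural, heart, liver, limb and erythroid tissue were detected in every library. One KO library, called a here, stood apart: 5 genes that respond to low oxygen (Vegfa, Bnip3, Egln3, Slc2a1 and Pfkfb3) summed to 1607 CPM in it and to between 283 and 390 CPM in the other 5, and 3 erythroid genes summed to 1181 CPM against 444 to 684 CPM. Its chi-square per gene was 16.65 and 12.3 against the other KO libraries, while WT a and KO c differed by only 2.92. All 5 low-oxygen genes were higher in KO at an unadjusted p under 0.05 by edgeR (1.06% of all genes), and 0 passed a false discovery rate of 0.05. For 4 of them, all but Slc2a1, every KO library lay above every WT library (3.01% of all genes). KO b and KO c lay much closer to WT than KO a did. Bnip3 measured 215, 29.9 and 30.7 CPM in KO a, b and c and 20.4 to 28.8 CPM in WT. Vegfa measured 355, 72.5 and 90.3 CPM in KO a, b and c and 53.4 to 70.0 CPM in WT. Liver genes also varied: Alb, Afp and Apoa1 summed to 73.3, 250 and 329 CPM in WT a, b and c and to 97.1, 99.1 and 158 CPM in KO, so WT a lay below the other WT libraries. Alb and Apoa1 had log2 differences of -1.66 and -1.29, both at an unadjusted p under 0.05 and with an adjusted p of 1.0 by edgeR. The part of liver tissue in the members' values was not tested.

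In embryos labelled Meis1 KO, no Wnt ligand, receptor or modulator passed a false discovery rate of 0.05, and none of the 49 members tested moved by 1 or more on the log2 scale. The test was edgeR's quasi-likelihood test, adjusted by Benjamini-Hochberg over 14442 genes. It called 0.0% of all genes at that rate, and the lowest adjusted p of a member was 1.0 after rounding. At an unadjusted p under 0.05, where 1.56% of all genes lay (226 of 14442), 1 member was found, Wnt2, lower in KO, which is 2.04% of the members. DESeq2 called 1 gene at the same false discovery rate, no member of the set, and put 165 genes and 0 members at an unadjusted p under 0.05. limma-voom called 0 genes, and put 196 genes at an unadjusted p under 0.05, Wnt2 the one member among them. The median member differed by 0.0015 on the log2 scale, with 25 members above 0 and 24 below, against -0.0006 for all genes tested. Standard errors of the members' log2 differences ran from 0.12 to 0.62 with a median of 0.24. A whole-embryo library cannot tell fewer cells of a type from less RNA per cell.

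**Figure D1:**
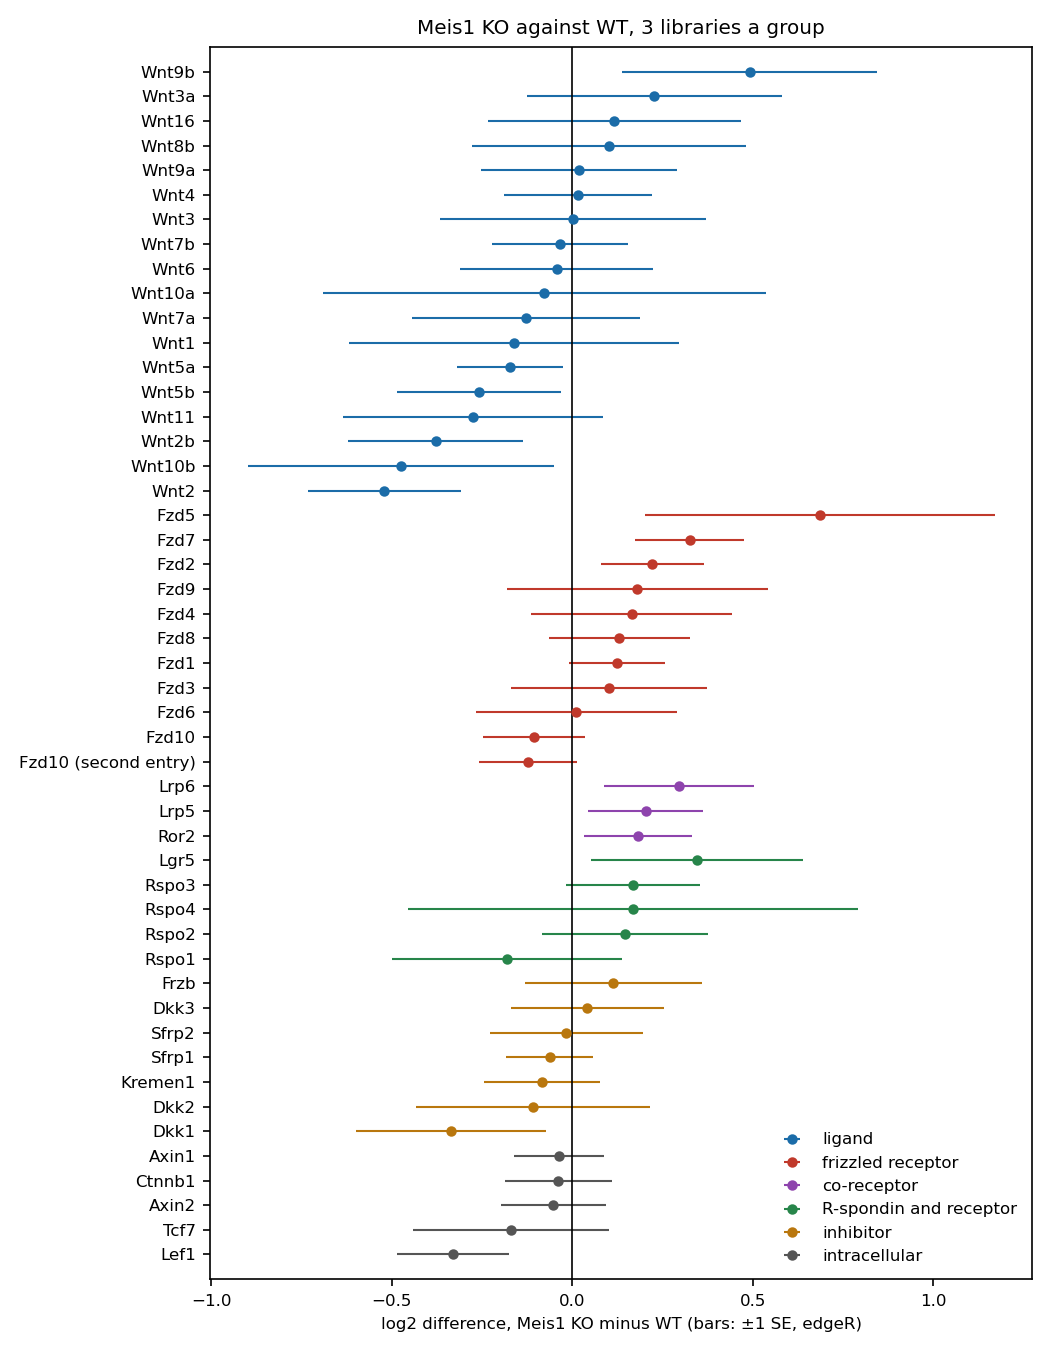
Log2 difference of each tested member, Meis1 KO minus WT (horizontal axis), with bars of 1 standard error from edgeR and colours by role; 3 libraries a group. Most bars cross 0; Fzd5 lies farthest to the right at 0.69 and Wnt2 farthest to the left at -0.52.

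For 4 members the KO libraries did not overlap the WT libraries, 8.16% of the members, where 5.68% of all genes tested did so. Fzd7 was the one with KO higher (3.01% of all genes), and Wnt2, Lef1 and Sfrp1 had KO lower (2.67% of all genes).

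Wnt2, a ligand known from the development of lung and placental vessels, lies on chromosome 6 from 17938940 to 17980585 (mm9, minus strand). It measured 14.8, 13.6 and 13.6 CPM in WT libraries a, b and c and 10.5, 8.67 and 10.1 CPM in KO libraries a, b and c. Every KO value was below every WT value. The log2 difference was -0.52 (SE 0.21, unadjusted p = 0.0341 by edgeR), on 42 to 87 counts a library, and it stayed between -0.57 and -0.44 when any 1 library was left out. Its unadjusted p was under 0.05 without KO a and was not when any of the other 5 was left out. Wnt2b, its closest relative among the ligands, measured 10.2, 13.6 and 14.9 CPM in WT and 8.35, 10.3 and 11.1 CPM in KO; its groups overlapped, at a log2 difference of -0.38 (SE 0.24).

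Lef1, the nuclear partner of beta-catenin and itself often used as a readout of Wnt signalling, lies on chromosome 3 from 130813389 to 130927274 (mm9, plus strand). It measured 73.7, 78.6 and 90.5 CPM in WT and 68.7, 70.4 and 54.3 CPM in KO. The groups did not overlap, the nearest values being those of WT a and KO b, and the log2 difference was -0.33 (SE 0.15, unadjusted p = 0.0587 by edgeR), between -0.40 and -0.22 with any 1 library left out. Fzd7, a widely expressed receptor, lies on chromosome 1 from 59538991 to 59543791 (mm9, plus strand) and measured 86.7, 73.5 and 80.7 CPM in WT and 118, 93.3 and 90.3 CPM in KO. All 3 KO values were above all 3 WT values, with KO a the highest. The log2 difference was 0.33 (SE 0.15, unadjusted p = 0.057 by edgeR) and 0.19 without KO a. Sfrp1, a secreted inhibitor on chromosome 8 from 24521974 to 24560104 (mm9, plus strand), measured 228, 226 and 225 CPM in WT and 206, 223 and 222 CPM in KO. Its groups were separate by a narrow gap, and the log2 difference was -0.06 (SE 0.12).

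The promoters of the 3 genes with the largest differences among these 4, and of Wnt11, which had the largest ratio in the Prep1 comparison, are shown so that the sequence before each start can be read beside the values. Each is the 250 bases before a RefSeq start on the gene's own strand (GRCm38.p6, a later build than the mm9 of the files). Capitals mark matches to TGACAG, the core site of MEIS and PREP proteins, or to CTTTGAT, a site of TCF and LEF proteins, on either strand; CTGTCA and ATCAAAG are the same letters read from the other strand. No match overlapped another.
Wnt2, chr6:18030446-18030695, minus strand: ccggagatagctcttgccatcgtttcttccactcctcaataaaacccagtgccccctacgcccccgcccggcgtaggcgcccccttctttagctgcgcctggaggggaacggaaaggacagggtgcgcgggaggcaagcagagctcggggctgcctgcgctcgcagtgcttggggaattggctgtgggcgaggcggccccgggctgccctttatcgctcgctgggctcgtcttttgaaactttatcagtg
Fzd7, chr1:59481897-59482146, plus strand: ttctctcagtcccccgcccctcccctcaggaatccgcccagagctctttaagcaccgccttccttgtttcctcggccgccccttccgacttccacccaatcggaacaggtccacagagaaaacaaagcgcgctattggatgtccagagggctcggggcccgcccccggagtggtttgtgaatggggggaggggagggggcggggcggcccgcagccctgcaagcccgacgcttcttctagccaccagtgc
Lef1, chr3:131156044-131156293, plus strand: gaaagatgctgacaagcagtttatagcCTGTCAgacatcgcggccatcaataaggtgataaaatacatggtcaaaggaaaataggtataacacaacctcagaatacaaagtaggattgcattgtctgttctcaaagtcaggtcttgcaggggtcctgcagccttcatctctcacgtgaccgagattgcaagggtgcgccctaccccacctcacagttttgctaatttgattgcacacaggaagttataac
Wnt11, chr7:98834862-98835111, plus strand: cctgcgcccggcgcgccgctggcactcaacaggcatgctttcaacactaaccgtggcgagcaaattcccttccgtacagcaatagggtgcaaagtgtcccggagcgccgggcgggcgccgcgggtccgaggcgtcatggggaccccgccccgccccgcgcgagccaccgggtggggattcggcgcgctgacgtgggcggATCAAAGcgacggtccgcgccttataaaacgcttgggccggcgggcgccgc

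The Lef1 sequence precedes the last of 4 listed starts and holds TGACAG on the other strand, 223 bases before the start; the other 3 Lef1 windows held neither motif. The Wnt11 sequence precedes the first of 2 starts and holds CTTTGAT on the other strand, 51 bases before it. Neither motif was found in the Wnt2 and Fzd7 windows, whose GC contents were 63.6% and 65.2% against a median of 52.4% over all promoters. Over the members, 40 windows of 32 symbols were matched. TGACAG was in 4 of them (Lef1, Wnt1, Wnt3 and Wnt4), or 10% of them, against 15.9% of all 32851 windows, and CTTTGAT was in 2 (Wnt11 and Wnt5b), or 5.0%, against 3.21%. A match here describes letters and does not show that a protein binds.

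The embryos expressed nearly the whole ligand family. Of 19 ligand genes in the Meis1 table, 18 passed the filter on low counts; Wnt8a did not, with 1, 2 and 3 counts in WT and 2, 2 and 0 in KO. Per kilobase of exon, the highest ligands in WT were Wnt6 at 15.9 ± 2.76, Wnt7b at 11.2 ± 2.75 and Wnt5a at 9.57 ± 0.904 CPM per kilobase (SD, n = 3). Wnt6 is made in surface ectoderm, Wnt7b in ectoderm and parts of the nervous system, and Wnt5a in outgrowing limb buds and tail. In WT a, b and c, Wnt6 stood at 12.9, 16.6 and 18.3 and Wnt7b at 8.05, 12.1 and 13.3 CPM per kilobase. Wnt6 was thus the higher of the 2 in each WT library, although their ranges over the libraries overlap. No test was run between genes.

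**Figure D2:**
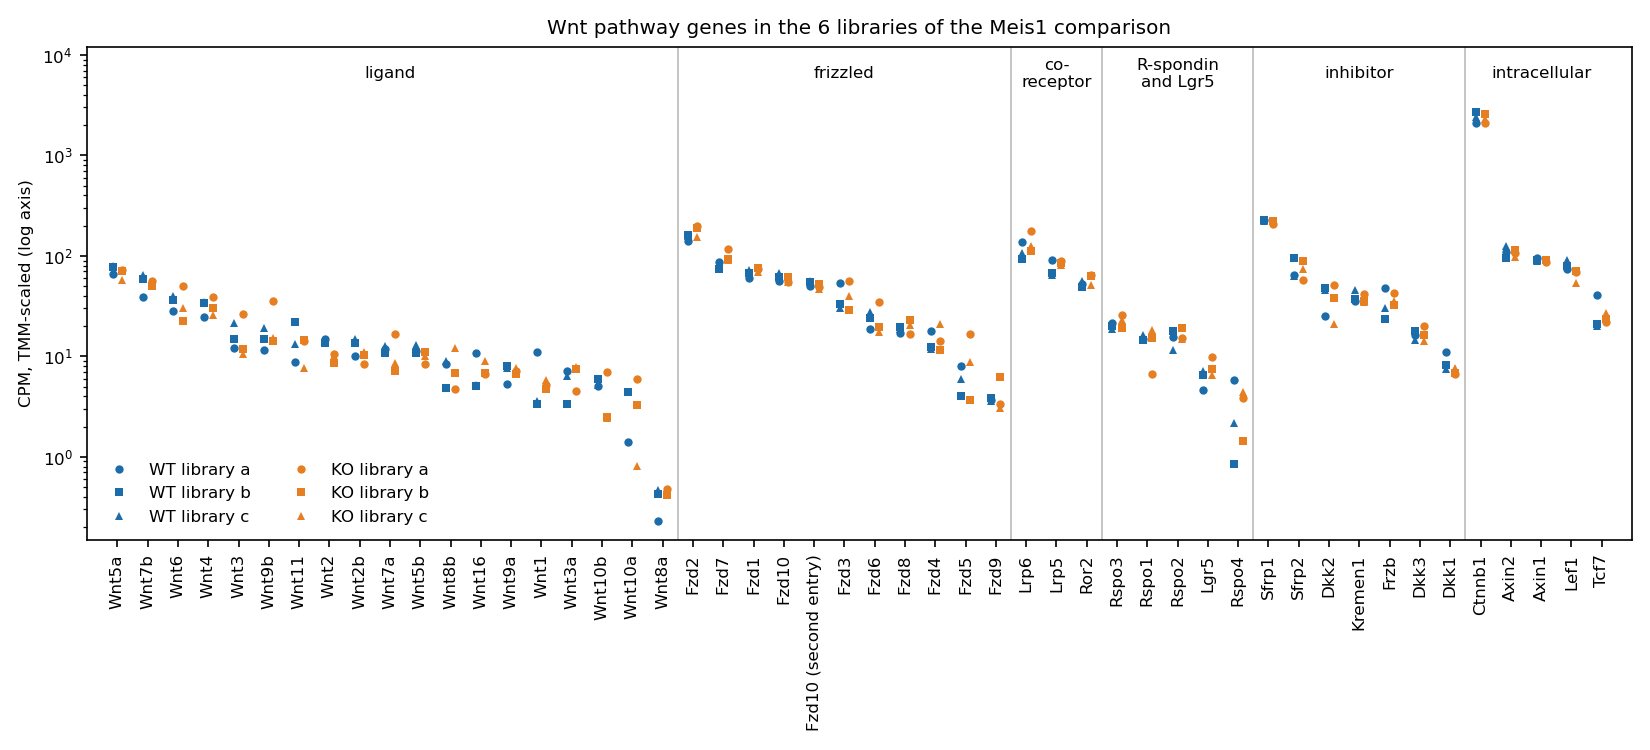
CPM of all 50 member entries (vertical, log axis) in the 3 WT (blue) and 3 Meis1 KO (orange) libraries, in blocks by role and ordered by the WT mean; marker shapes stand for libraries a, b and c, and Wnt8a in KO c, at 0, is not drawn. Ctnnb1 stands above every other member, at 2105 to 2686 CPM, and blue and orange points overlap for most members.

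Among the tested ligands, 7 lay above 0 and 11 below in KO minus WT, with a median of -0.06; without KO b, 10 lay above 0 and 8 below, with a median of 0.03. Wnt5a measured 66.8, 78.4 and 79.6 CPM in WT and 71.8, 70.0 and 58.0 CPM in KO (log2 difference -0.17, SE 0.15). Wnt5b, its paralogue, measured 11.4, 10.8 and 13.0 CPM in WT and 8.35, 10.9 and 10.1 CPM in KO (log2 difference -0.26, SE 0.23). Both sets of groups overlapped. Wnt11, a ligand of cell movement in heart and kidney, measured 8.81, 22.2 and 13.2 CPM in WT and 14.3, 14.7 and 7.68 CPM in KO (log2 difference -0.27, SE 0.36). Its highest WT value was 2.52 times its lowest, a wider spread than the difference between groups. Wnt7b, in the order of levels second among the ligands, had 39.4, 59.5 and 65.0 CPM in WT and 56.8, 50.4 and 53.5 CPM in KO, a log2 difference of -0.03 (SE 0.19).

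Several ligands were highest in KO library a and not in the other KO libraries. Wnt9b, an inducer of kidney tubules that is also made in facial ectoderm, measured 11.6, 14.8 and 19.1 CPM in WT and 35.3, 14.2 and 15.4 CPM in KO. Its log2 difference was 0.49 (SE 0.35) and -0.05 without KO a. Wnt3, a ligand of gastrulation and limb ectoderm, measured 12.1, 15 and 21.3 CPM in WT and 26.7, 12 and 10.5 CPM in KO, so that KO a was the highest and KO c the lowest of all 6; the log2 difference was 0.0015 and -0.53 without KO a. Wnt6 measured 28.3, 36.4 and 40.1 CPM in WT and 49.6, 22.7 and 30.1 CPM in KO (log2 difference -0.04, SE 0.27; -0.41 without KO a). Wnt7a, a dorsal limb ectoderm signal, had 11.8, 10.8 and 12.7 CPM in WT and 16.7, 7.23 and 8.69 CPM in KO (log2 difference -0.13, SE 0.32; -0.56 without KO a). Wnt10b measured 5.10, 5.93 and 5.17 CPM in WT and 6.92, 2.48 and 2.42 CPM in KO, with 2 KO libraries below every WT value and KO a above every WT value; its log2 difference was -0.47 (SE 0.42) and -1.13 without KO a. Wnt10a had 1.39, 4.45 and 4.39 CPM in WT and 5.97, 3.30 and 0.808 CPM in KO.

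KO a was the highest of the 6 libraries for 7 of the 18 ligands tested (Wnt3, Wnt4, Wnt6, Wnt7a, Wnt9b, Wnt10a and Wnt10b) and for 18 of the 49 members, 36.7%, against 26.4% of all genes. It was also the highest for 5 of 11 Frizzled entries and 2 of 3 co-receptors. For the R-spondins with Lgr5 it was 2 of 5, and for the inhibitors 2 of 7. Of 3 markers of surface ectoderm, 1 was also far higher in KO a: Trp63 stood at 149 CPM there and at 61.7 to 90.7 CPM elsewhere. Sp8, at 12.9 CPM in KO a, lay close to WT a at 12.3 CPM, and Krt14, at 10.5 CPM in KO a, lay within the WT range of 4.87 to 52.9 CPM. The 3 summed to 172 CPM in KO a and to between 84.0 and 129 CPM in the other libraries, and none was at 0 in any library. The part of these markers, or of the low-oxygen genes above, in the ligand values was not tested. Leaving out KO a put 4 of the 18 ligands above 0 and 14 below, with a median of -0.19. For the 7 ligands highest in KO a, a lower KO mean without it follows by construction. Without KO a the members at an unadjusted p under 0.05 rose from 1 to 4 (Wnt2, Lef1, Wnt7a and Wnt10b, by edgeR), beside 1.37% of all genes. Wnt7a and Wnt10b are among those 7 ligands. No member passed a false discovery rate of 0.05. Without KO b the members at an unadjusted p under 0.05 were Fzd5 and Lef1, beside 3.67% of all genes, and without WT b, WT c or KO c there were 0, beside 1.37%, 0.83% and 2.2%.

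**Figure D3:**
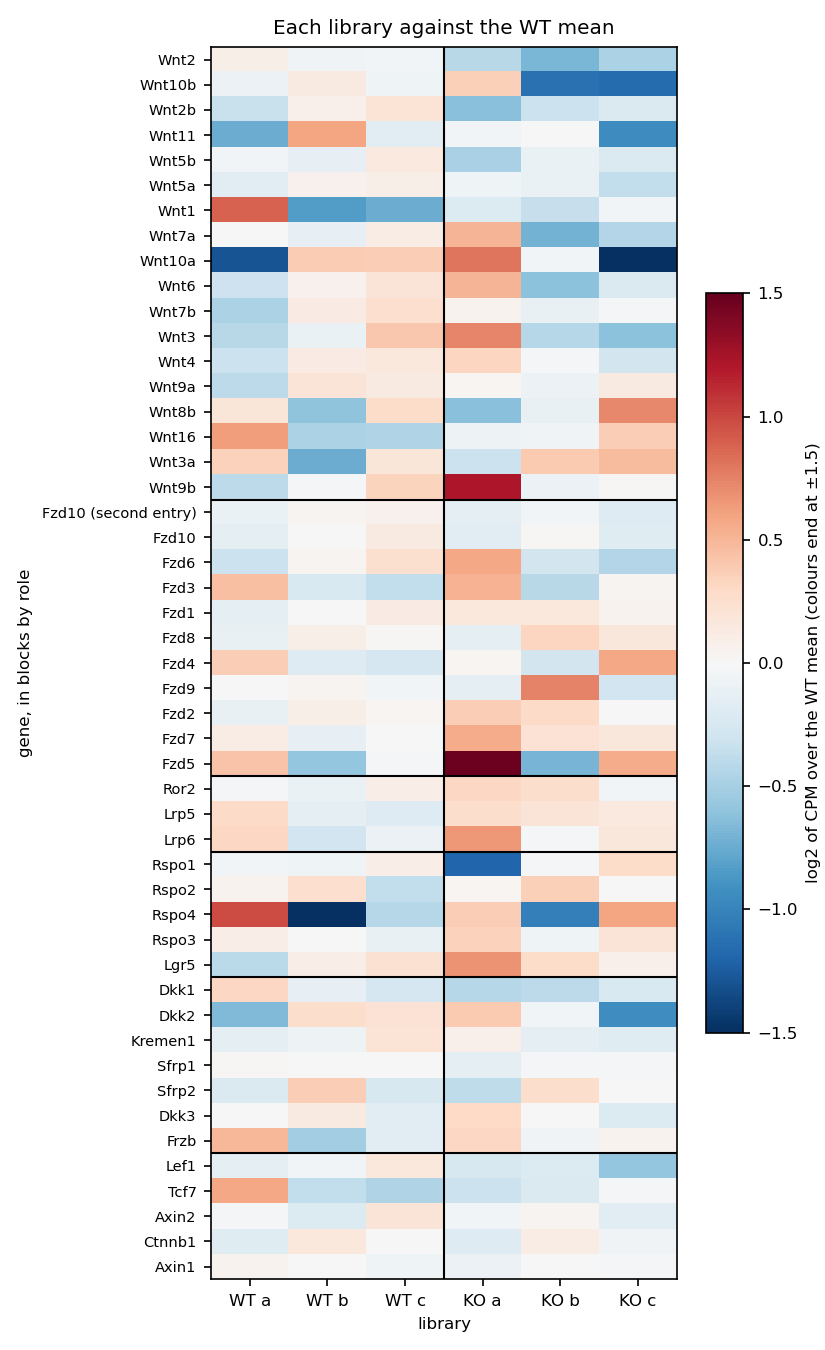
Log2 of each library's CPM over the WT mean (colour, ending at 1.5 in either direction) for the 49 members tested, in blocks by role, with the WT libraries left and the Meis1 KO libraries right of the line. KO a is red for many ligands where KO b and KO c are blue, and Wnt2 is blue in all 3 KO libraries.

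Several of these ligand genes are neighbours on a chromosome, in pairs known from other vertebrates too (mm9). Wnt6 and Wnt10a lie 6196 bases apart on chromosome 1 on the same strand, and Wnt9b and Wnt3 lie 24328 bases apart on chromosome 11 on opposite strands; all 4 were highest in KO a. Wnt10b and Wnt1 lie 11706 bases apart on chromosome 15 on opposite strands and were not alike: Wnt1, a ligand of the dorsal neural tube and midbrain, was highest in WT a at 11.1 CPM and lay between 3.39 and 5.86 CPM in the other 5 libraries. Wnt3a and Wnt9a, 16175 bases apart on chromosome 11 on opposite strands, measured 3.39 to 7.19 and 5.33 to 8.05 CPM in WT and 4.53 to 7.88 and 6.61 to 7.68 CPM in KO.

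The groups of the remaining ligands overlapped. Wnt4, which acts in kidney and gonad, measured 24.8 to 34.6 CPM in WT and 25.7 to 38.9 CPM in KO (log2 difference 0.02). Wnt8b, a forebrain ligand, measured 4.87 to 8.93 CPM in WT and 4.77 to 12.1 CPM in KO (log2 difference 0.10), and Wnt16 measured 5.08 to 10.9 CPM in WT and 6.68 to 9.09 CPM in KO (log2 difference 0.12).

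No receptor passed the test. Of 11 Frizzled entries (10 genes), 9 lay above 0 and 2 below, with a median log2 difference of 0.13; both entries below 0 were those of Fzd10. The 3 co-receptors all lay above 0, with a median of 0.20. Without KO a, 7 of the 11 Frizzled entries and 3 of the 3 co-receptors were above 0, with medians of 0.11 and 0.12.

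Fzd2, the highest Frizzled per kilobase at 42.0 ± 2.90 CPM per kilobase in WT (SD, n = 3), measured 142, 163 and 156 CPM in WT and 198, 188 and 153 CPM in KO (log2 difference 0.22, SE 0.14). KO a and KO b were above WT and KO c was within it. Fzd1 had 61.0, 67.6 and 72.8 CPM in WT and 74.9, 75.0 and 69.9 CPM in KO (log2 difference 0.12, SE 0.13), again with only KO c within the WT range. Fzd5, a receptor of eye and yolk sac, was low and variable at 8.11, 4.02 and 5.95 CPM in WT and 16.7, 3.72 and 8.89 CPM in KO. KO a was the highest and KO b the lowest of all 6, and its log2 difference of 0.69 (SE 0.48) was 0.07 without KO a and 1.08 without KO b. Fzd10 gave 55.9, 61.2 and 67.8 CPM in WT and 55.1, 62.4 and 54.5 CPM in KO under the first ID (log2 difference -0.11, SE 0.14). Under the second ID it gave 49.8, 55.1 and 55.9 CPM in WT and 48.7, 52.0 and 47.1 CPM in KO (log2 difference -0.12, SE 0.14). The 2 IDs overlap on chromosome 5, from 129106719 to 129109968 and from 129106806 to 129109236 (mm9, plus strand), so their reads can be shared and they are not 2 measurements. Fzd3, Fzd4, Fzd6, Fzd8 and Fzd9 overlapped between groups, with log2 differences from 0.01 for Fzd6 to 0.18 for Fzd9.

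Lrp6 measured 139, 92.3 and 106 CPM in WT and 177, 111 and 126 CPM in KO (log2 difference 0.29, SE 0.21; 0.08 without KO a). Lrp5, its paralogue, measured 90.4, 67.6 and 64.9 CPM in WT and 89.5, 84.7 and 82.0 CPM in KO (log2 difference 0.20, SE 0.16). For Lrp5 it was WT a that lay with the KO libraries: without it the log2 difference was 0.37 and Lrp5 was the 1 member at an unadjusted p under 0.05 by edgeR, where 3.0% of all genes lay. Ror2, the receptor of Wnt5a, measured 52.2, 49.1 and 56.6 CPM in WT and 65.1, 63.2 and 51.1 CPM in KO (log2 difference 0.18, SE 0.15), with KO c inside the WT range.

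The R-spondins and Lgr5 lay above 0 for 4 of 5 members, the median being 0.17. Without WT c, 2 of 5 lay above 0, and the median was -0.02. Lgr5 measured 4.64, 6.56 and 7.21 CPM in WT and 9.78, 7.43 and 6.46 CPM in KO (log2 difference 0.35, SE 0.29). Rspo3, needed for placental vessels, measured 21.6, 20.1 and 18.6 CPM in WT and 25.5, 19.2 and 23.0 CPM in KO (log2 difference 0.17, SE 0.19). Rspo2, a limb and lung R-spondin, measured 11.6 to 17.8 CPM in WT and 14.9 to 19.2 CPM in KO, so the groups of each of the 3 overlapped. Rspo1 was the one below 0 (log2 difference -0.18, SE 0.32): KO a had 6.68 CPM and the other 5 libraries 14.6 to 18.4 CPM, and without KO a the log2 difference was 0.13. Rspo4 ranged from 0.847 to 5.80 CPM within WT alone.

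Of the 7 inhibitors, 2 lay above 0 (Frzb and Dkk3) and 5 below, with a median of -0.06. Dkk1, the blocker of Lrp6 needed for head and limb formation, measured 11.1, 8.26 and 7.52 CPM in WT and 6.68, 6.82 and 7.68 CPM in KO (log2 difference -0.33, SE 0.26), with KO c just above the lowest WT library. Sfrp2 measured 64.2, 95.7 and 63.1 CPM in WT and 57.0, 89.2 and 73.9 CPM in KO (log2 difference -0.02, SE 0.21). Sfrp1 and Sfrp2 were also the highest secreted members per kilobase, at 51.8 ± 0.377 and 34.5 ± 8.60 CPM per kilobase in WT (SD, n = 3). Dkk2 varied from 25.0 to 47.6 CPM within WT and from 20.8 to 51.8 CPM within KO, and Frzb, Dkk3 and Kremen1 had log2 differences of 0.11, 0.04 and -0.08.

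The intracellular members overlapped between groups except Lef1. All 5 lay below 0, with a median of -0.05, and 4 of the 5 were below 0 without KO a. Axin2, a direct target of beta-catenin that reports on the pathway's activity, measured 109, 95.7 and 127 CPM in WT and 108, 114 and 98.6 CPM in KO (log2 difference -0.05, SE 0.15); the groups overlapped fully. Tcf7 had 40.8, 21.2 and 20.1 CPM in WT and 22.0, 23.5 and 26.9 CPM in KO (log2 difference -0.17, SE 0.27), with WT a alone above the rest; without WT a the log2 difference was 0.23. Ctnnb1 had the highest level per kilobase of all members, 462 ± 54.5 CPM per kilobase in WT (SD, n = 3), and measured 2120, 2686 and 2392 CPM in WT and 2105, 2595 and 2312 CPM in KO (log2 difference -0.04, SE 0.15). Axin1, the scaffold of the destruction complex, measured 95.5, 91.9 and 88.0 CPM in WT and 86.1, 92.1 and 90.1 CPM in KO (log2 difference -0.04, SE 0.12).

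The authors' deposited table gives an adjusted p of 1 for all 50 member entries, and its lowest member p, 0.0663, belongs to Fzd5.

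The pathway lists held further genes outside the members. Of 59 listed, 49 were tested, 0 passed a false discovery rate of 0.05 by edgeR, 1 lay at an unadjusted p under 0.05 with KO higher (1.06% of all genes) and 0 with KO lower (0.505% of all genes). The log2 differences were above 0 for 29 and below for 20, with a median of 0.03. Of all genes tested, 49.9% lay above 0. The 1 gene was Celsr2, a cadherin of planar cell polarity, at 81.1, 42.4 and 57.8 CPM in WT and 74.7, 75.0 and 131 CPM in KO (log2 difference 0.63, SE 0.27, unadjusted p = 0.0433 by edgeR), with groups that overlapped; Celsr3 had 0.55. Dvl3, which carries the signal from Frizzled into the cell, was the 1 gene among the 49 tested whose groups did not overlap (5.68% of all genes in either direction, 3.01% with KO higher), at 68.4, 58.4 and 64.7 CPM in WT and 69.7, 89.2 and 69.3 CPM in KO (log2 difference 0.25); all 3 Dishevelled genes lay above 0, Dvl1 at 0.25. Ligand secretion had 2 of 2 genes above 0, Porcn, which adds the lipid to Wnt, at 0.53 and its carrier Wls at 0.26; Wls was highest in KO a at 241 CPM against 132 to 162 CPM in the others. All 6 other receptor genes tested lay above 0. Ror1 was at 0.40 (SE 0.21) and Znrf3, a ligase that removes Frizzled from the surface, at 0.49 (SE 0.30). Both were highest in KO a. Znrf3 measured 63.5, 31.8 and 36.2 CPM in KO a, b and c, the last 2 within its WT range of 20.3 to 41.0 CPM. Ror1 measured 63.2, 46.9 and 35.8 CPM in KO a, b and c, with KO c within its WT range of 32.8 to 40.1 CPM. Other secreted or membrane inhibitors had 0 of 7 above 0, with Sost at -0.42 and Apcdd1 at -0.22. The destruction complex and casein kinases had 5 of 8 above 0, with Csnk1e at 0.18 and Gsk3b at 0.11. Nuclear partners had 3 of 6, with Tcf7l2 at 0.23 and Pygo1 at -0.14. Downstream targets had 4 of 8, with Lmx1b at -0.28 and Nkd1 at -0.17.

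The Prep1 comparison has 1 library a group, so there is no replicate check and no test; intervals cover counting error only. In the hypomorph, Wnt11 was the 1 member past 2-fold, and it was higher: 21 counts in WT and 76 in the hypomorph, or 5.29 and 12.8 CPM, a log2 ratio of 1.21 (95% interval 0.56 to 2.05). Among all 13780 genes kept, 2.01% were past 2-fold higher and 0.464% lower (2.47% in either direction), against 1 of 46 members higher, 2.17%, and 0 lower. The median member ratio was -0.0063 on the log2 scale, with 22 above 0 and 24 below, and 0.0031 over all genes kept. Wnt10a, Wnt10b and Rspo4, with fewer than 20 counts in the higher library, were not kept.

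The Wnt11 gene lies on chromosome 7 from 105983622 to 106003705 (mm9, plus strand), and its promoter with the TCF and LEF letters is printed above. In the 3 WT libraries of the Meis1 comparison it measured 8.81 to 22.2 CPM, so the Prep1 WT library at 5.29 CPM lay below that range and the hypomorph at 12.8 CPM lay within it. The tables were scaled separately. Tissue markers also differed between the 2 Prep1 libraries: the heart genes Myh6, Myl7 and Tnnt2 summed to 239 CPM in WT and 140 CPM in the hypomorph, and the liver genes Alb, Afp and Apoa1 to 131 and 382 CPM, all 3 of the latter past 2-fold. Of the heart genes, Myh6 had a log2 ratio of -1.15, Tnnt2 -0.37 and Myl7 -0.11. Among the other markers, Krt14 and Myod1 were also past 2-fold, at log2 ratios of 2.61 and 1.06. None of these heart and liver genes was at 0, and the part of any marker in the Wnt11 ratio was not tested.

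**Figure D4:**
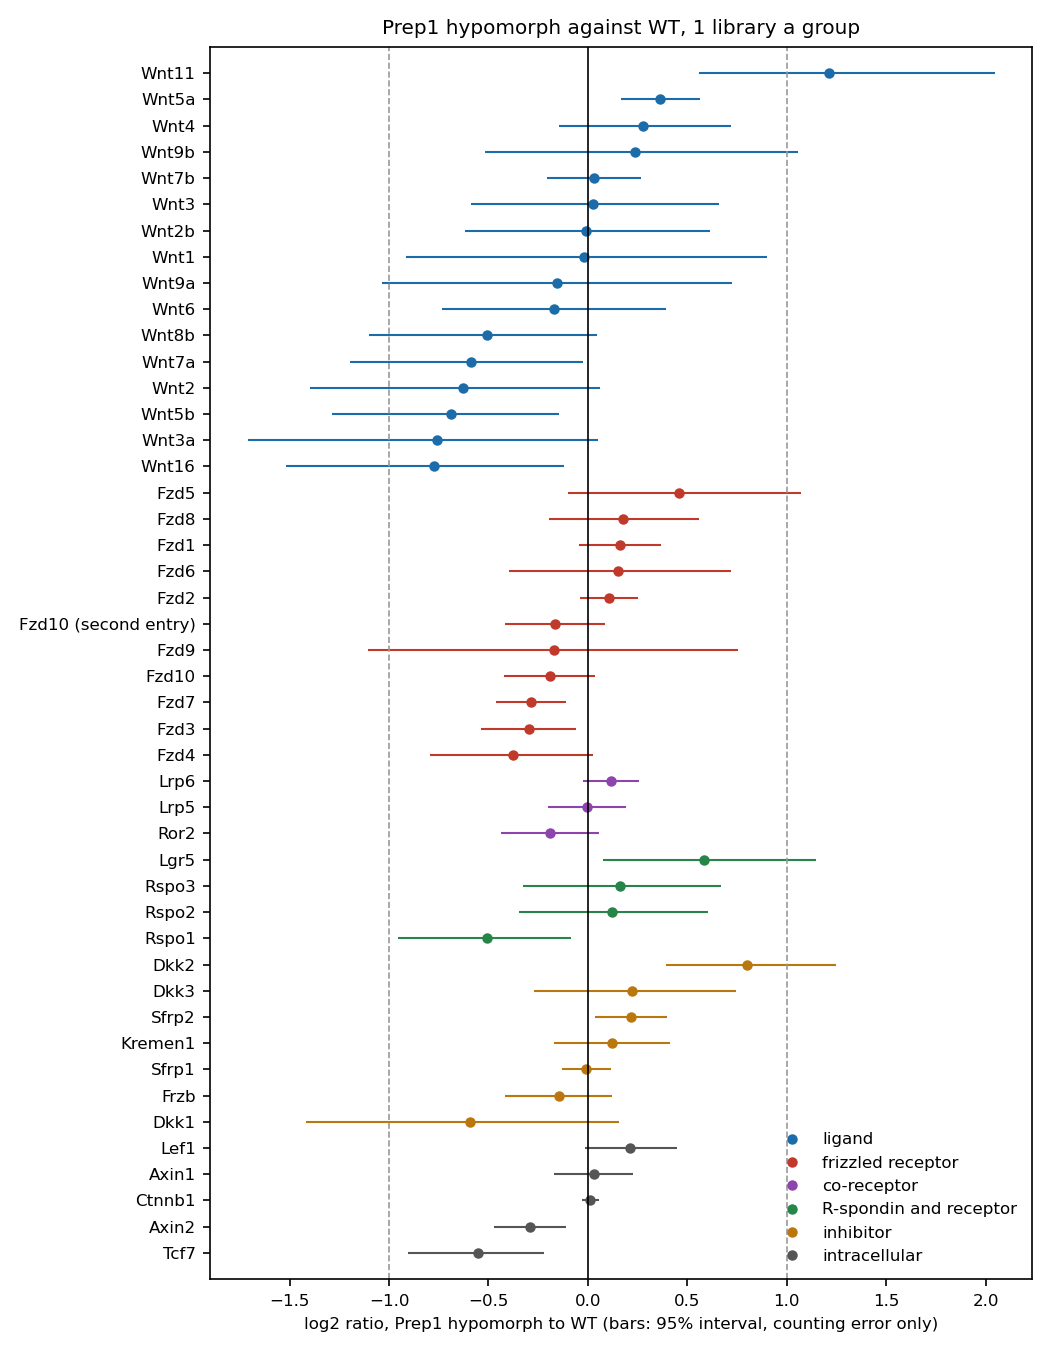
Log2 ratio of each of the 46 members kept, Prep1 hypomorph to WT, with the exact 95% interval from counting error; dashed lines mark 2-fold, and colours are by role. Wnt11 is the 1 point past a dashed line, and most of the lowest log2 ratios belong to ligands.

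Among the 16 ligands kept, 6 had a log2 ratio above 0 and 10 below, with a median of -0.09. Wnt16 was the lowest, with 40 counts in WT and 34 in the hypomorph (10.1 and 5.72 CPM, log2 ratio -0.77, interval -1.52 to -0.12). Wnt3a, the ligand of the tail bud and dorsal neural tube, had 26 and 22 counts (6.55 and 3.70 CPM, log2 ratio -0.76, interval -1.71 to 0.05). Wnt5b had 57 and 52 counts (14.4 and 8.75 CPM, log2 ratio -0.69, interval -1.28 to -0.15). These ligands rest on few counts, and the interval of Wnt3a includes 0. Wnt2 had 35 and 33 counts (8.82 and 5.56 CPM, log2 ratio -0.63, interval -1.40 to 0.06), and both Prep1 libraries were below its Meis1 WT range of 13.6 to 14.8 CPM. Wnt7a and Wnt8b had log2 ratios of -0.59 and -0.51. Wnt5a, with 326 and 628 counts, rests on more: 82.1 CPM in WT and 106 CPM in the hypomorph, a log2 ratio of 0.36 (interval 0.17 to 0.56).

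The 11 Frizzled entries had 5 log2 ratios above 0 and 6 below, with a median of -0.17, from -0.38 for Fzd4 (96 and 110 counts) to 0.46 for Fzd5 (38 and 79 counts). Fzd7 had 475 counts in WT and 583 in the hypomorph, or 120 and 98.1 CPM (log2 ratio -0.28, interval -0.46 to -0.11). Fzd2, at 154 and 166 CPM, had a log2 ratio of 0.11, and Lrp5 and Lrp6 had log2 ratios of -0.0046 and 0.12. Lgr5 had 44 and 100 counts (11.1 and 16.8 CPM, log2 ratio 0.59, interval 0.08 to 1.15), both above its Meis1 WT range of 4.64 to 7.21 CPM. Rspo1 had 89 and 93 counts (22.4 and 15.7 CPM, log2 ratio -0.51, interval -0.95 to -0.08).

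Dkk2, a Dkk family member made in mesenchyme, had the second highest ratio of all members, with 65 counts in WT and 171 in the hypomorph (16.4 and 28.8 CPM, log2 ratio 0.80, interval 0.39 to 1.25). As with Wnt11, the Prep1 WT library lay below the Meis1 WT range, here 25.0 to 47.6 CPM, and the hypomorph lay within it. Dkk1 had 30 and 29 counts (7.56 and 4.88 CPM, log2 ratio -0.59, interval -1.42 to 0.16), and Sfrp1, with 895 and 1332 counts, had a log2 ratio of -0.0080 (interval -0.13 to 0.12). Sfrp2 had 0.22 (interval 0.04 to 0.40).

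Axin2 had 455 and 557 counts, or 115 and 93.8 CPM (log2 ratio -0.29, interval -0.47 to -0.11). Tcf7 had 145 and 147 counts, or 36.5 and 24.7 CPM (log2 ratio -0.55, interval -0.90 to -0.22), both within its Meis1 WT range of 20.1 to 40.8 CPM. Lef1 had 62.2 and 72.2 CPM (log2 ratio 0.21, interval -0.01 to 0.45), an interval that includes 0. Both Lef1 values were below its Meis1 WT range of 73.7 to 90.5 CPM. For Axin2 the Prep1 WT library lay within its Meis1 WT range of 95.7 to 127 CPM and the hypomorph below it. Ctnnb1, with 7404 and 11177 counts, had a log2 ratio of 0.01 (interval -0.03 to 0.06).

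**Figure D5:**
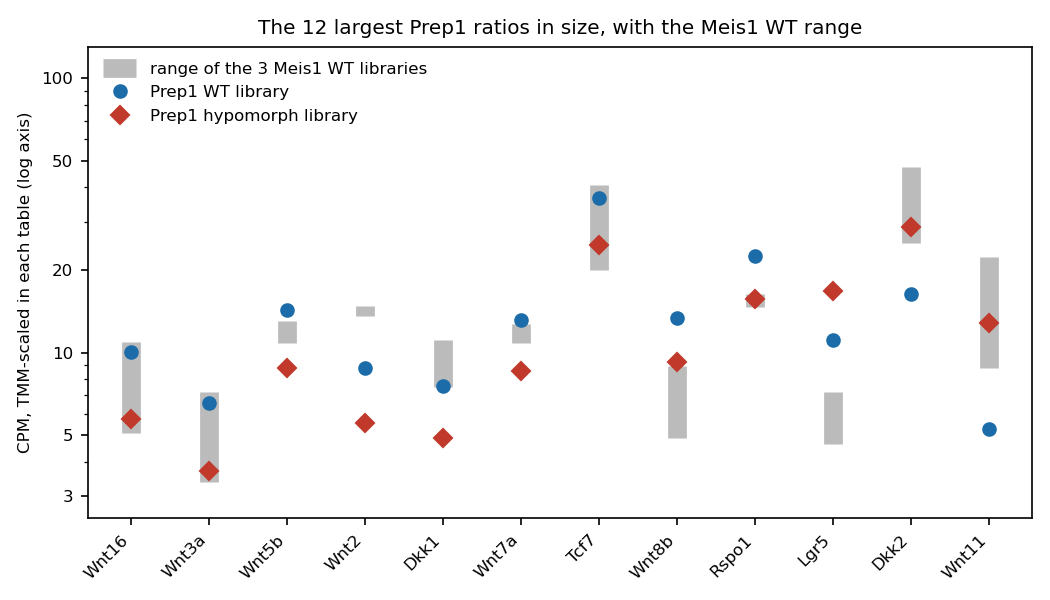
CPM (vertical, log axis) of the 12 members with the largest Prep1 ratios in size, in the Prep1 WT library (blue circles) and the hypomorph (red diamonds), over the range of the 3 Meis1 WT libraries (grey bars). For Wnt11 and Dkk2 the blue circle lies below the grey bar and the red diamond within it; for Wnt2 both lie below it.

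Among the 46 members kept, the Prep1 WT library was above the Meis1 WT range for 20, below it for 15 and within it for 11, so 76.1% lay outside, against 69.3% of the 13772 genes kept in both tables. The hypomorph was above for 14, below for 16 and within for 16, so 65.2% lay outside, against 71.0% of all genes.

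Of the pathway genes outside the members, 47 were kept in the Prep1 comparison. Of these, 0 were past 2-fold in either direction, against 2.47% of all genes kept. Their median log2 ratio was 0.02 (25 above 0, 22 below). The largest were Wif1, a secreted Wnt inhibitor, with 16 and 49 counts (log2 ratio 0.96, interval 0.19 to 1.95), and Rnf43, a ligase that removes Frizzled, with 15 and 43 counts (0.87, interval 0.06 to 1.89). Znrf3, which has the same role, was on the other side at -0.57 (227 and 228 counts). Prickle2 and Prickle1, of planar polarity, had 0.54 and 0.45, Pygo1 and Bcl9l, nuclear partners, 0.52 and 0.37, and Apc2 and Btrc of the destruction complex 0.49 and 0.34. Apcdd1 had 0.39, and the targets Sp8 and Myc had -0.45 and 0.38. Dishevelled and the secretion genes lay near 0, with Dvl1 and Dvl2 both at -0.07, Porcn at 0.05 and Wls at -0.11.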

How the data were processed

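Per the labels' protocols, mRNA of whole embryos was sequenced as single 68-base reads, and the submitters' processing notes name RSEM and build mm9; no source used here gives versions or later steps. Values in the Meis1 signal columns deposited by the authors are means over each group of whole counts divided by size factors. Beside them the authors deposited a ratio of residual to fitted variance, a log2 fold change and p-values. The Prep1 values are expected counts deposited by the authors as whole numbers, with 0 written as 0.1.

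The plan assumed counts per library. Since the Meis1 means are sums of 3 whole counts, each divided by a size factor, those counts were solved from the printed digits: 18896 of 18904 genes in WT and 18895 in KO had 1 possible set, and 6 genes (Actb, Eef1a1, H19, Hba-x, Hbb-bh1 and Hbb-y) stayed unsettled and were left out. No member was among them. The recovered libraries are named a, b and c within a group by their total, and cannot be tied to the sample codes. No library was a copy, since the lowest chi-square per gene within a group was 6.09.

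Meis1 KO and WT were compared with edgeR 4.0.16 in R 4.3.3 (quasi-likelihood test, TMM scaling, filterByExpr, Benjamini-Hochberg over all genes tested), with DESeq2 1.42.0 and limma 3.58.1 (voom), DESeq2 size factors, no filter and each library left out as alternatives. The Prep1 ratios use CPM scaled by TMM, a prior count of 2 and at least 20 counts in the higher library; other scalings, priors and minimums were tried. Scripts were tested on simulated data. Levels per kilobase divide CPM by the exon length in GENCODE M21, and promoters are RefSeq's. Values for each library are given for the 10 members of smallest p in each direction, the members whose groups do not overlap, Axin2, Lef1, Tcf7 and the 5 highest per kilobase, and for other members where 1 library decides the value; of each pathway list the 2 of smallest p (Meis1) and of largest ratio (Prep1) are named. The members and lists were chosen with earlier results of these data known.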

Additional observations from a re-analysis of the deposited data

How the results depend on the processing

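No member passed a false discovery rate of 0.05 in the Meis1 comparison under any of the 10 alternatives run. The members at an unadjusted p under 0.05 numbered 1, 0 with DESeq2, and between 0 and 4 with 1 library left out. Those whose groups did not overlap numbered 4, and between 5 and 14 with 1 library left out, where 2 libraries against 3 separate more easily by construction (10.7% to 18.2% of all genes); the other 4 alternatives left the number at 4. The median log2 difference of the members lay between -0.0557 and 0.0331 with 1 library left out. Of the 49 members tested, 21 kept the sign of their log2 difference under all 10 alternatives, and 28 did not. Wnt2, Lef1, Fzd7 and Sfrp1 were among the 21. Since their groups do not overlap, leaving out 1 library could hardly reverse their sign, so for them those alternatives are no check. limma-voom gave -0.1329 for Wnt3, -0.0700 for Fzd6, 0.0950 for Wnt1 and -0.0037 for Wnt4, and no filter on low counts gave -0.0047 for Wnt3; the cause was not tested. With each library left out in turn, the log2 differences of the 28 ranged as follows: Axin2 -0.15 to 0.0582, Ctnnb1 -0.12 to 0.0507, Dkk2 -0.43 to 0.18, Dkk3 -0.0977 to 0.15, Frzb -0.0876 to 0.44, Fzd3 -0.16 to 0.39, Fzd4 -0.11 to 0.38, Fzd6 -0.36 to 0.20, Fzd9 -0.22 to 0.37, Kremen1 -0.17 to 0.0331, Rspo1 -0.48 to 0.13, Rspo2 -0.0173 to 0.29, Rspo4 -0.26 to 1.02, Sfrp2 -0.18 to 0.21, Tcf7 -0.36 to 0.23, Wnt1 -0.45 to 0.59, Wnt10a -0.75 to 0.41, Wnt11 -0.53 to 0.14, Wnt16 -0.0775 to 0.56, Wnt3 -0.53 to 0.27, Wnt3a -0.0281 to 0.43, Wnt4 -0.16 to 0.15, Wnt6 -0.41 to 0.18, Wnt7a -0.56 to 0.0958, Wnt7b -0.22 to 0.11, Wnt8b -0.35 to 0.35, Wnt9a -0.13 to 0.12 and Wnt9b -0.0461 to 0.72. In the Prep1 comparison the count past 2-fold stayed at 1 under every alternative, and the median lay between -0.0096 and 0.0279. No paired analysis was possible because no source links a recovered library to its code in the labels. Those codes come in 2 styles, with and without a letter, that both Meis1 groups share; the labels do not say what the styles mark, and whether they are a litter or batch was not tested. The counts above 0 within each role were also taken under every Meis1 alternative, a check added after the data were seen: Frizzled entries lay between 7 and 9 of 11, co-receptors stayed at 3 of 3, ligands lay between 4 and 10 of 18 where 18 were tested, R-spondins with Lgr5 between 2 and 5 of 5, inhibitors between 2 and 3 of 7, and intracellular members between 0 and 1 of 5. Depth limits the low ligands and Rspo4 most, where a library holds few counts, and with 1 library a group no Prep1 ratio has a replicate error.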
